A study of Mus musculus with 20 samples.

Results

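The subject is the conjugation enzymes of phase 2 metabolism, namely the glutathione S-transferases (Gst), the sulfotransferases (Sult) and the UDP-glucuronosyltransferases (Ugt), in kidney and liver of mice labelled as lacking the liver X receptor alpha. Members were the protein-coding rows of the count table whose symbol begins with Gst and class letter a, k, m, p, t or z, with Sult, or with Ugt1, 2 or 3 followed by a or b, and which had at least 10 counts in at least 5 of the 20 libraries. By name 62 of the 54532 genes matched, and 44 met the count rule, 19 Gst, 8 Sult and 17 Ugt genes. Just inside the rule, Sult2a7 and Sult2b1 reached 10 counts in 10 libraries each (480 and 286 counts in all), and just outside, Ugt1a2 and Sult3a1 reached it in 3 libraries each (289 and 175 counts in all). The study sequenced RNA of kidney and liver from male C57BL/6 mice in 4 groups of 5 libraries, labelled knockout kidney (Lxrα-/-, numbered 1 to 5), wild-type kidney (numbered 1, 3, 4, 5 and 6), labelled knockout liver and wild-type liver with the same numbers. No treatment is named, and the age of the mice and the deleted part of the gene are not given in the sources used here. In the text KO stands for the labelled knockout and CT for wild type.

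These enzymes attach a polar group to drugs, hormones, bile acids and products of lipid oxidation, so that exporters can carry the conjugates into bile and urine. Gst enzymes use glutathione, Sult enzymes take sulfate from the activated donor PAPS, and Ugt enzymes take glucuronic acid from UDP-glucuronate in the endoplasmic reticulum. Many of the genes sit in clusters of close copies, and the Ugt1a genes each splice their own first exon to a shared set of last exons. Liver is the main site of conjugation in the body, and the proximal tubule of the kidney has its own set of the enzymes. Several of them differ between male and female mouse liver.

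Libraries held 23421561 to 35376342 counts each. The targeted gene, Nr1h3, which encodes the receptor, averaged 50.1 ± 8.64 FPKM in KO kidney against 20.7 ± 0.903 in CT kidney, and 66.3 ± 7.17 in KO liver against 39.1 ± 5.41 in CT liver (SD, n = 5 each). It was thus higher in the libraries labelled KO (log2 fold change 1.27, SE 0.16, adjusted p = 0.00209 in kidney and 0.76, SE 0.12, adjusted p = 0.00277 in liver), so this gene does not check the labels, and directions below follow them. FPKM here are counts per kilobase of gene length and per unit of scaled library total, with the scaling done within each tissue. The hepatocyte markers summed to 25348 to 41237 FPKM in KO livers and 41359 to 55384 in CT livers, against 169.6 to 482 in KO kidneys and 44.5 to 208 in CT kidneys, and proximal tubule markers stayed at or under 0.540 FPKM in every liver, so the tissue labels matched. CT kidney 3 stood apart with 50.8% of its counts from mitochondrially encoded genes, and CT kidney 1 with 7.21%, against 12.6% to 21.1% in the other kidneys. KO livers 4 and 5 were the lowest 2 of the 5 KO livers for 24 of the 43 members tested in liver (55.8%), against 22.8% of all genes tested there. In bulk tissue, fewer cells of a type and less RNA per cell cannot be told apart.

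In wild-type mice most members were liver genes, and a smaller set belonged to the kidney. CT kidney differed from CT liver in 41 of 44 members (edgeR adjusted p under 0.05), against 59.5% of all 17606 genes tested. In kidney 12 members were higher, against 32.6% of all genes, and 29 lower, against 26.8%. Of the members 9 met the count rule through liver libraries alone and 1 through kidney libraries alone. For these the rule itself favoured the direction, so the shares of all genes are not a like comparison. The levels in this paragraph and the next are FPKM scaled over all 20 libraries. Among the genes higher in kidney, Ugt2b38 averaged 329 ± 162 FPKM in CT kidney against 25.6 ± 9.48 in CT liver, Ugt3a2 227 ± 123 against 108 ± 10.3, and Sult1d1, which sulfates dopamine and other catecholamines in the mouse, 153 ± 62.2 against 44.7 ± 5.58 (SD, n = 5 each). The human enzymes of the Ugt3a family use UDP-sugars other than UDP-glucuronate. Gsta2, an alpha-class enzyme, stood at 134 ± 87.9 FPKM in CT kidney against 13.3 ± 4.46 in CT liver, and Gstm5, of the mu class, at 76.6 ± 34.3 against 10.4 ± 1.76. The other kidney-side members were Ugt1a7c, Ugt2b37, Sult1c2, Sult2b1, Ugt3a1, Gstt2 and Ugt1a10, with log2 differences of kidney over liver from 0.72 for Gstt2 to 6.53 for Ugt1a7c. The Ugt1a10 call was lost without CT kidney 5 (log2 difference 0.78, adjusted p = 0.338) and with the mouse as a block (1.51, adjusted p = 0.137).

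On the liver side, Gstm1 of the mu class averaged 222 ± 26.0 FPKM in CT kidney against 1172 ± 345 in CT liver, and Gstp1 of the pi class 57.7 ± 15.3 against 865 ± 535 (SD, n = 5 each). Some members were at or next to nothing in kidney, and Sult2a8, Ugt2b36 and Ugt1a1 met the count rule through liver libraries alone. Sult2a8, which sulfates bile acids in mouse liver, had 1 count over the 5 CT kidneys against 249.9 ± 48.9 FPKM in CT liver. Ugt2b36 had 0 counts in all 5 CT kidneys and 369 ± 63.4 FPKM in CT liver, which is at least 8950-fold lower in kidney when each kidney is set at 3 counts. Ugt1a1, the bilirubin-conjugating enzyme, averaged 0.0383 ± 0.0313 FPKM in CT kidney against 37.6 ± 10.1 in CT liver, while Ugt1a7c from the same locus ran the other way, with 12.4 ± 8.81 against 0.132 ± 0.0593. Gstp2, Gsta1 and Gstt3 were not called between the tissues (log2 differences -1.39, -1.16 and -0.23, adjusted p = 0.0642, 0.0698 and 0.578).

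**Figure D1:**
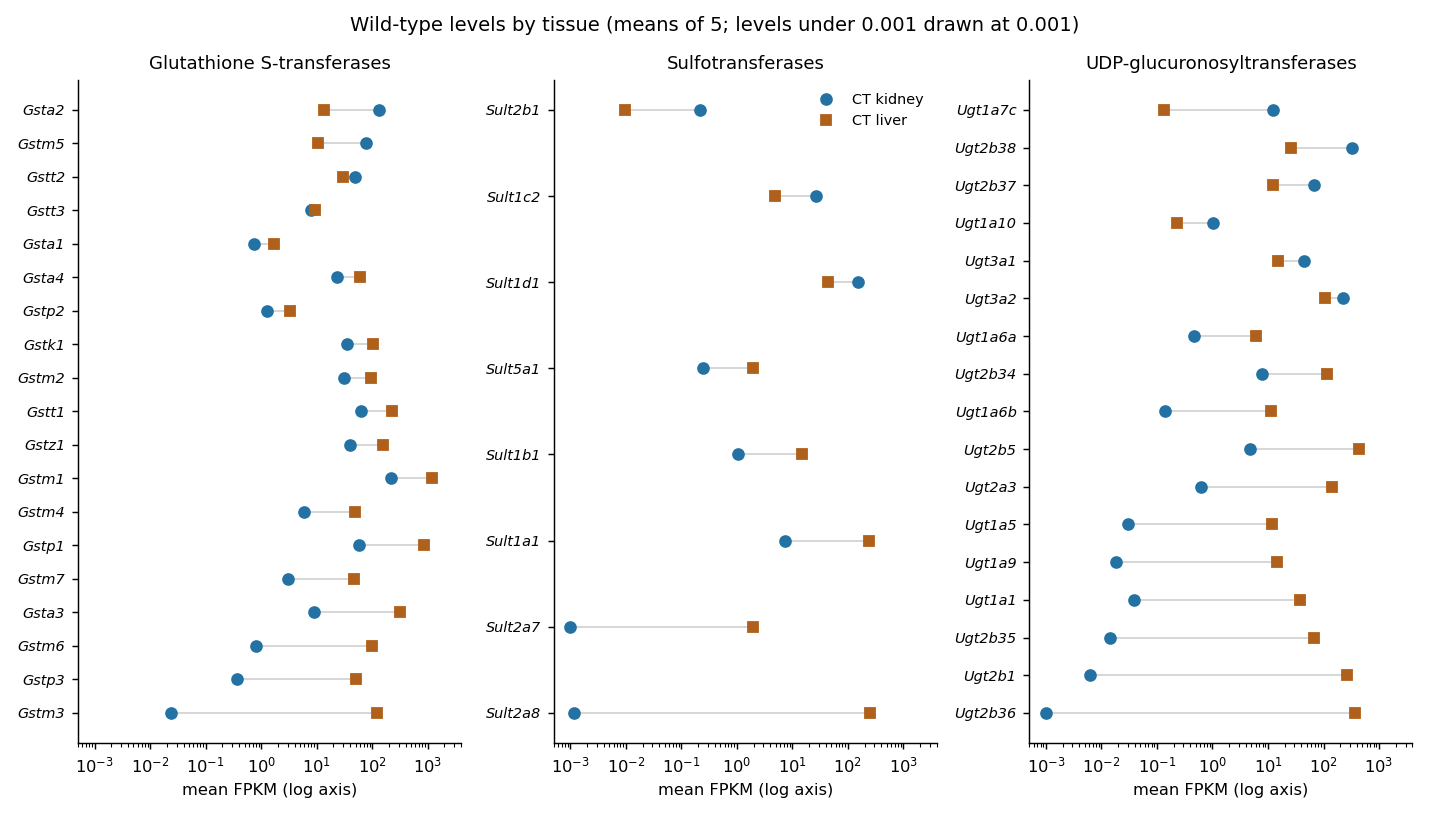
Mean FPKM of the 44 members in 5 CT kidneys (circles) and 5 CT livers (squares), on a log axis, one row per gene and one panel per family, ordered by the log2 difference. Of the 44 members 12 lie higher in kidney by the test, at the top of the panels, and 29 lie lower, with Ugt2b36 and Sult2a7 at 0 counts in kidney and drawn at the left end.

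Over the 10 libraries of each tissue, the order of levels was led in kidney by Ugt2b38 (mean of 541 FPKM), Ugt3a2 (353), Gstm1 (263) and Sult1d1 (189), and in liver by Gstp1 (1666), Gstm1 (854), Ugt2b5 (426) and Ugt2b36 (314). These means pool the genotypes, and the first pair in liver turns with genotype: Gstp1 averaged 2634 ± 173 FPKM and Gstm1 763 ± 155 in KO liver, against 698 ± 428 and 944 ± 272 in CT liver (SD, n = 5 each). At least 1 FPKM was reached by 26 members in kidney and 41 in liver, and at least 100 FPKM by 6 in kidney and 11 in liver. All these values are scaled within each tissue. The leading Ugt of the kidney, Ugt2b38, had 678, 607, 650.0, 799 and 616 FPKM in KO kidneys 1 to 5 against 288, 186, 502, 378 and 706 in CT kidneys 1, 3, 4, 5 and 6. The KO kidneys lay close together, and CT kidney 6 lay among them while the other CT kidneys lay below. Its log2 fold change was 0.70, SE 0.31, adjusted p = 0.236, so it was not called in kidney.

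In liver the genotype comparison called 7 members. Gstp1, Gstp2 and Sult5a1 were higher in KO liver, and Gstp3, Sult1c2, Ugt1a5 and Ugt2b37 were lower. That is 7 of 43 members tested, against 6.02% of all 14822 genes tested in liver (1.94% called higher and 4.08% lower). At an unadjusted p under 0.05 there were 16, against 20.3% of all genes tested. Across all tested members the median log2 fold change was -0.15, against -0.0032 for all genes tested. The KO and CT livers did not overlap for 7 of the 43 members tested, which were the same 7, against 6.95% of all genes tested. The other 36 members had log2 fold changes from -0.84 to 1.17 and were not called. Without KO livers 4 and 5 there were 10 calls, 6 of them among those 7, where 4.14% of all genes were called. Gstp2 was lost, and Gsta2, Sult2a8, Ugt2b5 and Ugt3a1 were added, all higher in KO. KO livers 4 and 5 were the lowest KO livers for each added member. Leaving them out thus raises the KO means of these genes by itself, and the direction of the added calls is not a separate result.

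**Figure D2:**
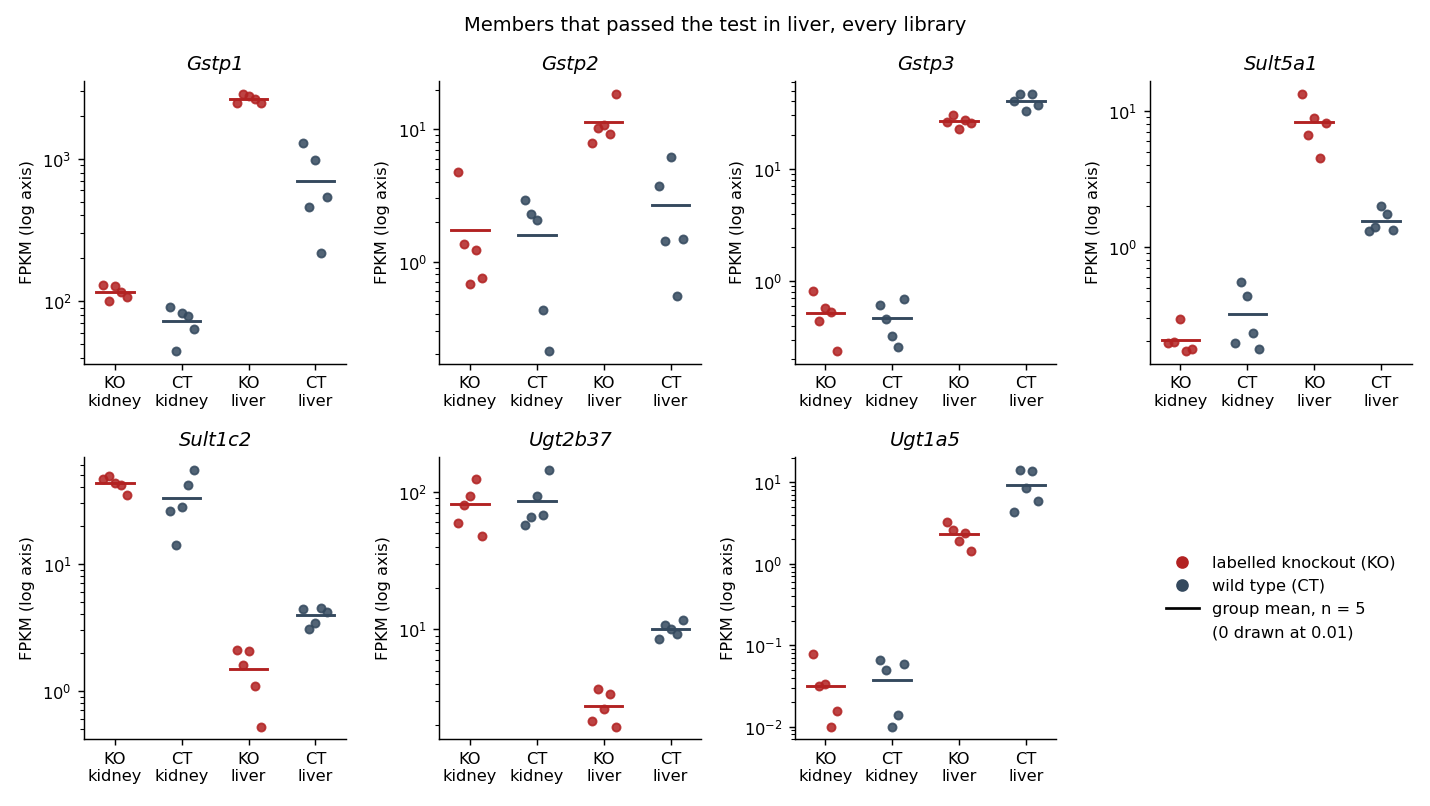
FPKM of the 7 members called in liver, in every library, on log axes, with KO kidney, CT kidney, KO liver and CT liver from left to right, points for libraries and bars for group means (n = 5), scaled within each tissue. KO and CT livers are apart in all 7 panels, whereas the KO and CT kidneys overlap in all but Gstp1, and the kidneys at 0 for Ugt1a5 are drawn at the foot of the panel.

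The pi-class cluster on chromosome 19 holds 3 members within 4035407 to 4059446 (mm10, minus strand), and in KO liver 2 of them rose and 1 fell. Gstp1 conjugates electrophiles such as products of lipid peroxidation and is the most abundant pi-class transcript of male mouse liver. The promoters of Gstp1 and Gstp2 are shown because these neighbours moved the same way. The bases are the 120 before the RefSeq start in GRCm38.p6, at chr19:4037913-4038032 for Gstp1 and chr19:4042222-4042341 for Gstp2, minus strand, 5′ to 3′, with capitals where Gstp2 has no identical partner in the alignment to Gstp1.
Gstp1: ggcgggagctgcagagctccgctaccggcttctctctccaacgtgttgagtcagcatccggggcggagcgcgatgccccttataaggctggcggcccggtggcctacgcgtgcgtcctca
Gstp2: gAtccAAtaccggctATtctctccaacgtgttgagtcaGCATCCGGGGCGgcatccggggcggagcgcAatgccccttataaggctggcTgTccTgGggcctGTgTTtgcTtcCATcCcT
Over the 250 bases before the start, Gstp2 was identical to Gstp1 at 207 of 265 aligned positions (78.1%), with a longest identical run of 43 bases. Gstp3 matched Gstp1 at 125 of 272 positions (46%), with a longest run of 8.

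Gstp1 had 2466, 2851, 2770, 2609 and 2473 FPKM in KO livers 1 to 5 against 1281, 461, 986, 218 and 543 in CT livers 1, 3, 4, 5 and 6. The KO livers were high and nearly equal, and the CT livers were all lower and spread widely, with CT liver 5 lowest. The coefficient of variation was 6.59% in KO liver and 61.4% in CT liver, against medians over the tested members of 31.0% in KO liver and 21.7% in CT liver. Gstp1 rose by 1.92, SE 0.37, adjusted p = 0.00846 on the log2 scale (edgeR). Gstp2 had 7.93, 10.2, 10.8, 9.28 and 18.5 FPKM in KO livers against 3.73, 1.43, 6.21, 0.548 and 1.49 in CT livers, so the groups were apart, with KO liver 5 standing high. It rose by 2.09, SE 0.49, adjusted p = 0.0246, and the call was lost without CT liver 3, CT liver 6 or KO liver 5 (adjusted p = 0.0585, 0.0673 and 0.0547) and without KO livers 4 and 5 (0.0867). Of the 50-base stretches of the annotated Gstp2 transcripts, 49.1% also occur in Gstp1, and Gstp2 counts were 0.327 to 0.762% of the Gstp1 counts in KO livers and 0.256 to 0.641% in CT livers. Reads of the pair can therefore not be assigned with certainty, and whether Gstp2 changed on its own was not tested.

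Gstp3, which shares no 50-base stretch with another gene, had 26.4, 30.4, 22.7, 27.3 and 25.9 FPKM in KO livers against 40.4, 46.7, 32.8, 46.2 and 36.8 in CT livers. The groups lay next to each other without overlap. It fell by 0.61 on the log2 scale (SE 0.12, adjusted p = 0.00980).

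Gstp1 weighed heavily in the family total of the liver. All 19 Gst genes summed to 4380 ± 448 FPKM in KO liver and 2762 ± 725 in CT liver, and Gstp1 made up 60.5 ± 4.94% of it in KO liver and 23.9 ± 9.98% in CT liver (SD, n = 5 each). Without Gstp1 the sums were 1746 ± 367 FPKM in KO liver and 2065 ± 392 in CT liver, and their ranges overlapped. In kidney Gstp1 was 11.7 ± 1.77% of the KO sum and 7.88 ± 2.58% of the CT sum.

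**Figure D3:**
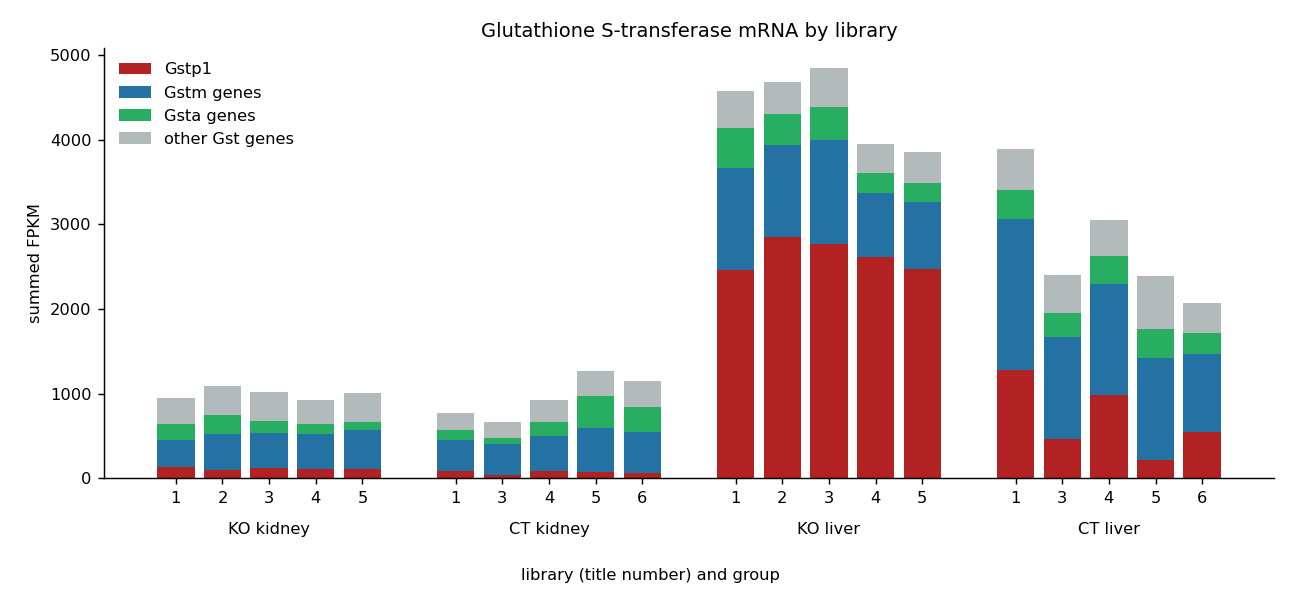
Summed FPKM of the 19 Gst genes in each library, stacked as Gstp1, Gstm genes, Gsta genes and the others, with bars named by title number and groups ordered KO kidney, CT kidney, KO liver, CT liver, scaled within each tissue. The Gstp1 segment is 54.0 to 66.0% of the bar in the KO livers and 9.11 to 32.9% in the CT livers.

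The other classes of glutathione transferase were not called in liver. Gstm1, below Gstp1 in every KO liver and above it in every CT liver, had 888, 845, 892, 576 and 613 FPKM in KO livers against 1389, 857, 987, 808 and 681 in CT livers, and the groups overlapped (log2 fold change -0.31, SE 0.21, adjusted p = 0.447). All 7 Gstm genes had negative values, from -0.76 for Gstm3 to -0.20 for Gstm7, under each of the 3 scalings tried, and so had the 3 theta-class Gstt genes, from -0.84 to -0.40. The Gstm genes lie together on chromosome 3, between 107895821 and 108044894. The 4 alpha-class Gsta genes had positive values of 0.013 to 1.17, of which 2 turned negative with library size alone. Gsta2 stood at 24.0 ± 18.4 FPKM in KO liver and 10.7 ± 3.51 in CT liver (SD, n = 5 each), where KO livers 4 and 5 lay lowest of the KO group. It was among the members called without those libraries, whose removal raises its KO mean by itself. Gstz1, the maleylacetoacetate isomerase of tyrosine breakdown, differed by 0.036, and that sign changed with the scaling and with 1 library left out.

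Among the sulfotransferases of the liver, Sult5a1 rose and Sult1c2 fell. Sult5a1, a cytosolic sulfotransferase on chromosome 8 (123140192 to 123158315, mm10, minus strand), had 13.4, 6.72, 8.91, 4.52 and 8.15 FPKM in KO livers against 1.31, 1.41, 2.005, 1.75 and 1.33 in CT livers. Every KO liver was above every CT liver, with KO liver 1 highest. It rose by 2.42, SE 0.25, adjusted p = 0.000140, the largest fold change among the tested members in liver, and the call held in all 22 alternative fits. Sult1c2, which sulfates phenolic compounds and lies on chromosome 17 (53829637 to 53846339, minus strand), had 2.11, 1.59, 2.06, 1.10 and 0.522 FPKM in KO livers against 4.43, 3.09, 3.43, 4.45 and 4.19 in CT livers. The groups did not overlap, and KO livers 4 and 5 were the lowest of all. It fell by 1.41 (SE 0.30, adjusted p = 0.0143), and by 1.02 without those 2 livers.

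The most abundant sulfotransferase of the liver, Sult2a8, was not called. It had 374, 340.3, 344, 159 and 105 FPKM in KO livers against 224, 163, 257, 169 and 195 in CT livers. KO livers 1 to 3 lay above all CT livers and KO livers 4 and 5 below them, so the group mean joins unlike libraries. The log2 fold change was 0.39, SE 0.31, adjusted p = 0.525. Without KO livers 4 and 5 it was 0.82 (adjusted p = 0.0152), where dropping the lowest values raises the KO mean by itself. Sult1d1 showed the same pair of low libraries, with 46.6, 21.3, 30.7, 7.29 and 8.44 FPKM in KO livers against 30.2, 34.8, 40.3, 33.5 and 41.8 in CT livers, and was not called (log2 fold change -0.66, SE 0.41, adjusted p = 0.405). The phenol sulfotransferase Sult1a1, with Sult1b1 and Sult2a7, had values of -0.34, -0.040 and -0.51 and was not called either.

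Of 17 Ugt genes tested in liver, 2 fell and none rose, against 4.08% and 1.94% of all genes tested. Ugt2b37 lies in the Ugt2b cluster of chromosome 5, between Ugt2b5 and Ugt2b38, all on the minus strand. The promoters of these 3 are shown because the genes are close copies and only Ugt2b37 was called. The bases are the 120 before the RefSeq start in GRCm38.p6, at chr5:87254789-87254908, chr5:87424204-87424323 and chr5:87140341-87140460, 5′ to 3′, with capitals where the base has no identical partner in the alignment to Ugt2b37.
Ugt2b37: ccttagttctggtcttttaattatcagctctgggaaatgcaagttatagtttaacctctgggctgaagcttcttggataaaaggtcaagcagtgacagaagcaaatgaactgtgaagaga
Ugt2b38: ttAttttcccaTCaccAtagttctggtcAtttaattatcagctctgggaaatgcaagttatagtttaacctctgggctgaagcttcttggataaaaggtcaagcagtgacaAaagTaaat
Ugt2b5: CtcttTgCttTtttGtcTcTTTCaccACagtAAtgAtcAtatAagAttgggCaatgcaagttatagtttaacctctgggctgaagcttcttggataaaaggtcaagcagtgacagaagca
Over the 250 bases before the start, Ugt2b38 was identical to Ugt2b37 at 224 of 264 aligned positions (84.8%), with an unbroken run of 82 bases. Ugt2b5 was identical at 199 of 274 positions (72.6%), with a run of 67.

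Ugt2b37 had 2.13, 3.70, 2.62, 3.37 and 1.95 FPKM in KO livers against 8.46, 10.7, 9.97, 9.26 and 11.6 in CT livers. Each group was tight, and the highest KO liver lay well below the lowest CT liver. It fell by 1.86 on the log2 scale (SE 0.18, edgeR adjusted p = 9.23e-05), and the call held in all 22 alternative fits. Ugt2b38 had 25.5, 47.1, 31.1, 28.4 and 22.9 FPKM in KO livers against 20.3, 16.7, 33.6, 13.2 and 19.5 in CT livers, with overlap, and a log2 fold change of 0.58, SE 0.24, adjusted p = 0.197. Ugt2b5, the most abundant Ugt of the liver, had 635, 578, 559, 394 and 328 FPKM in KO livers against 465, 278, 437, 281 and 309 in CT livers, again with overlap and with KO livers 4 and 5 lowest in their group (log2 fold change 0.49, SE 0.22, adjusted p = 0.220). It reached 0.75 without those 2 livers (adjusted p = 0.0482), where dropping the lowest values raises the KO mean by itself. The differences between these neighbours were not tested. Of the 50-base stretches of Ugt2b37 18.3% also occur in another gene, against 37.4% for Ugt2b38 and 41.7% for Ugt2b5, so counts of these copies cannot be split with certainty.

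Ugt1a5 belongs to the Ugt1a locus of chromosome 1, whose members span 88055388 to 88220002 on the plus strand. It had 3.25, 2.59, 1.89, 2.36 and 1.42 FPKM in KO livers against 4.31, 14.3, 8.58, 13.7 and 5.95 in CT livers. The highest KO liver lay below the lowest CT liver, and the CT livers spread over a wider range. It fell by 2.02 on the log2 scale (SE 0.33, adjusted p = 0.00288). Ugt1a5 took 4.07 to 5.53% of the counts of the 7 Ugt1a members in KO livers and 7.34 to 19.98% in CT livers. The other 6 had values from -0.73 for Ugt1a9 to 0.074 for Ugt1a6b, the only positive one, which turned negative with library size alone. The bilirubin enzyme Ugt1a1 stood at -0.62, SE 0.25, adjusted p = 0.176. Since 52.1% to 79.8% of the 50-base stretches of these genes occur in another gene, counts cannot be split between them with certainty.

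In kidney no member was called. With 35 tested, edgeR gave 0 calls where 2.26% of all 16500 genes tested were called (0.394% higher and 1.87% lower), and 7 members at an unadjusted p under 0.05, against 19.8% of all genes. Log2 fold changes ran from -2.66 for Ugt1a10 to 0.97 for Ugt1a6b, with a median of 0.09 against -0.07 for all genes tested. The DESeq2 Wald test gave 3 (Gstp1, Gstt2 and Gstz1, all higher) and called 6.98% of all genes, limma voom with quality weights gave 8 (7 higher and 1 lower) and called 13% of all genes, and limma-trend on the log2 FPKM values gave 0. KO and CT kidneys did not overlap for 3 members, all higher in KO, against 6.92% of all genes tested. Without CT kidneys 1 and 3 there were 3 calls, Gstp1 higher and Ugt1a10 and Ugt2b34 lower, against 3.51% of all genes.

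Of the 3 members whose kidneys did not overlap, Gstp1 had the smallest p. It had 129, 100.4, 127, 117 and 107 FPKM in KO kidneys 1 to 5 against 91.6, 44.9, 82.8, 78.6 and 63.9 in CT kidneys 1, 3, 4, 5 and 6. All KO kidneys lay above all CT kidneys, by a small margin over CT kidney 1. The log2 fold change was 0.68, SE 0.19, adjusted p = 0.0834, and it was 0.58 without CT kidney 3 (adjusted p = 0.0392). The other 2 were Gstz1 (log2 fold change 0.56, SE 0.18, adjusted p = 0.125) and the theta-class Gstt2 (0.37, SE 0.16, adjusted p = 0.235).

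The abundant members of the kidney overlapped between genotypes. Gstm1 had 194, 243, 240.0, 266 and 289 FPKM in KO kidneys against 244, 277, 261, 331 and 285 in CT kidneys (log2 fold change -0.18, SE 0.18, adjusted p = 0.560). Sult1d1 had 253, 145, 85.3, 275 and 162 FPKM in KO kidneys against 88.0, 153, 233, 201 and 291 in CT kidneys (-0.068, SE 0.35, adjusted p = 0.922), and both groups spread about equally. Apart from Gstp1, the members called in liver overlapped between genotypes in kidney. Ugt2b37, more abundant there than in liver, had 59.8, 80.2, 93.8, 124 and 48.0 FPKM in KO kidneys against 57.9, 65.3, 93.0, 68.2 and 145 in CT kidneys, with wide overlap (-0.085, SE 0.30, adjusted p = 0.882). Sult1c2 had 46.4, 48.8, 43.3, 41.8 and 35.1 FPKM in KO kidneys against 26.2, 14.1, 27.9, 42.1 and 55.3 in CT kidneys (0.38, SE 0.29, adjusted p = 0.451), and the KO values lay inside the CT range. Sult5a1 had 0.194, 0.197, 0.293, 0.170 and 0.176 FPKM in KO kidneys against 0.194, 0.548, 0.436, 0.233 and 0.177 in CT kidneys (-0.60, SE 0.37, adjusted p = 0.361), a trace level in both. Gstp2 averaged 1.74 ± 1.69 FPKM in KO kidney and 1.59 ± 1.20 in CT kidney, and Gstp3 0.522 ± 0.212 FPKM in KO and 0.466 ± 0.182 in CT kidney (SD, n = 5 each), with log2 fold changes of 0.14 and 0.15. Ugt1a5 stayed under 0.1 FPKM in every kidney and was not tested there.

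Over the tested members the CT kidneys were more uneven than the KO kidneys. The spread over all genes was not computed, so this is not shown to be particular to these families. The median coefficient of variation over the 35 tested members was 23.0% in KO kidney and 47.9% in CT kidney, and CT kidney 3 was the lowest CT kidney for 23 of 35 members (65.7%), against 34.6% of all genes tested. Proximal tubule markers summed to 47113 to 68876 FPKM in KO kidneys against 22855 to 46925 in CT kidneys, without overlap, with 1 of 8 markers called higher, the organic anion transporter Slc22a6. Its call was lost without CT kidney 1, 4 or 5 or KO kidney 1, 3, 4 or 5 (adjusted p up to 0.101). Of the stromal markers 3 of 4 were lower, with sums of 6.96 to 13.2 FPKM in KO kidneys against 18.8 to 53.2 in CT kidneys. Of the lymphocyte markers 2 of 4 were lower, with sums of 0.543 to 1.68 FPKM in KO kidneys against 2.46 to 4.62 in CT kidneys. Of all genes tested in kidney, 0.394% were called higher and 1.87% lower. The part of cell makeup in the kidney values was not tested.

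**Figure D4:**
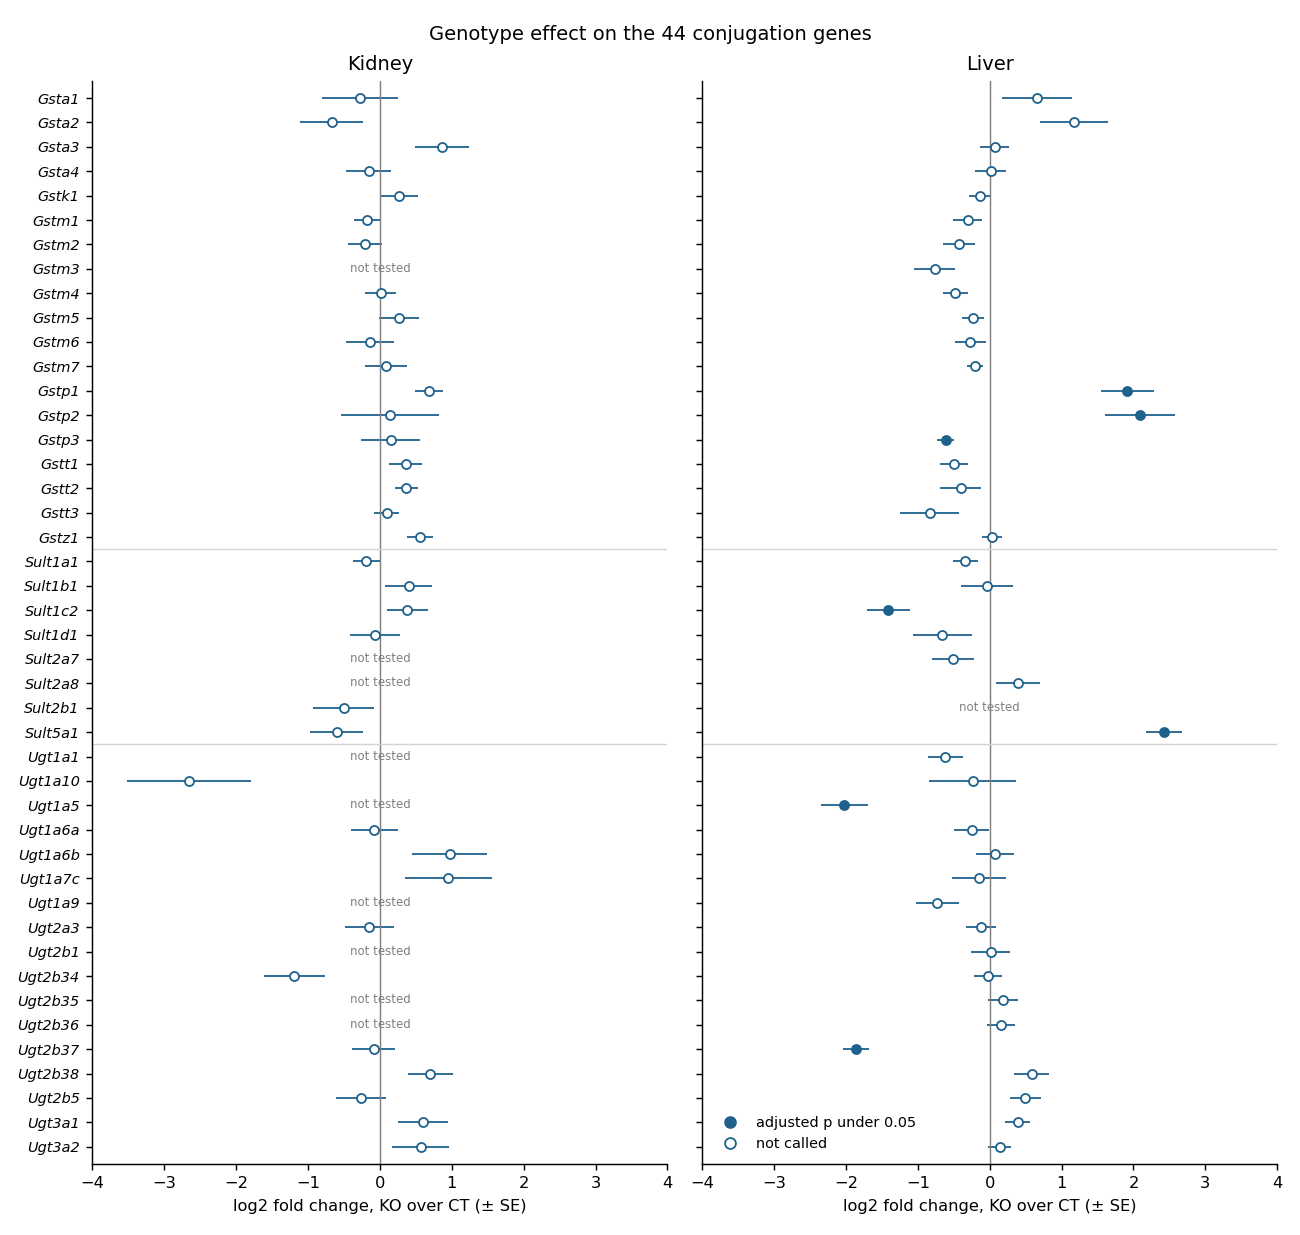
Log2 fold change of KO over CT with its SE for each member, kidney left and liver right, from the edgeR fit of 10 libraries per tissue, with filled points called at an adjusted p under 0.05 and open points not called. All 35 kidney points are open, and the 7 filled liver points run from -2.02 for Ugt1a5 to 2.42 for Sult5a1.

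The genotype effect differed between the tissues for 3 of 44 members, against 1.51% of all 17606 genes tested (0.937% with a positive difference and 0.568% with a negative one). The difference, from the fit of all 20 libraries, subtracts the log2 effect in liver from the one in kidney. It was -2.96, SE 0.42, adjusted p = 0.000308 for Sult5a1, 1.79, SE 0.37, adjusted p = 0.0116 for Ugt2b37 and 1.81, SE 0.43, adjusted p = 0.0347 for Sult1c2. In all 3 the genotypes were apart in liver and overlapped in kidney. The difference was not called for Gstp1 (-1.22, SE 0.45, adjusted p = 0.207), Gstp2 (-1.93, SE 0.88, adjusted p = 0.340) or Gstp3 (0.76, SE 0.35, adjusted p = 0.342). Nor was it called for Ugt1a5 (1.78, SE 0.93, adjusted p = 0.403), which was close to absent in kidney. For members with no counts in kidney the difference has no usable estimate (SE 749 for Sult2a7 and 258 for Ugt2b36). The Sult1c2 call was lost on leaving out any of 11 of the 20 libraries, namely CT kidneys 1 and 4, CT livers 1, 5 and 6, KO kidneys 1 to 4, and KO livers 2 and 4 (adjusted p up to 0.0694). Without KO livers 4 and 5 it was 1.44 (adjusted p = 0.123). Without those and CT kidneys 1 and 3, the 3 called members were Sult5a1, Gsta2 and Ugt2b34, and Ugt2b37 stood at 1.52 (adjusted p = 0.0594).

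Genes that supply the conjugating enzymes were tested as lists. Of all genes tested, 6.02% were called in liver and 2.26% in kidney. In liver 1 of 4 UDP-glucuronate supply genes was higher, the nucleotide sugar transporter Slc35b1 (0.67, SE 0.17, adjusted p = 0.0356), 1 of 8 sulfate supply genes was lower, the PAPS synthase Papss1 (-1.01, SE 0.27, adjusted p = 0.0434), and 1 of 10 genes of glutathione synthesis and breakdown was higher, Cbs of the transsulfuration pathway (0.55, SE 0.14, adjusted p = 0.0332). These 3 calls were lost in 7, 9 and 6 of the 10 fits without 1 library. Slc35b1 kept its call without CT liver 5 or KO liver 1 or 3, Papss1 without KO liver 5, and Cbs without CT liver 5 or KO liver 1, 2 or 3 (adjusted p up to 0.0868, 0.105 and 0.0826 where lost). Without KO livers 4 and 5 Slc35b1 and Cbs were not called (adjusted p = 0.167 and 0.107). In kidney 0 of 4, 0 of 9 and 1 of 11 were called, the last being the glutathione-cleaving Ggt6 at 7.67 ± 0.968 FPKM in KO and 3.91 ± 0.503 in CT (0.97, SE 0.16, adjusted p = 0.0120), whose call was lost with library size alone (adjusted p = 0.0545). Of the 8 listed exporters in liver, Abcb1b rose (2.42, SE 0.25, edgeR adjusted p = 0.000137) and its paralog Abcb1a fell (-1.42, SE 0.32, adjusted p = 0.0185). The 6 others, and all 8 in kidney, were not called. Whether the products of these 2 called genes carry conjugates was not tested. Abcb1a lost its call without KO livers 4 and 5 (adjusted p = 0.0736). The 6 deconjugating enzymes and the glutathione transferases outside the rule (Gsto, Mgst and others, 4 tested in liver and 7 in kidney) were not called in either tissue by edgeR. At an unadjusted p under 0.05, and by DESeq2, these kidney lists gave 0 and 0 genes of UDP-glucuronate supply, 1 and 0 of sulfate supply, 3 and 0 exporters, 2 and 2 deconjugating enzymes, and 2 and 0 other glutathione transferases. In liver they gave 0 and 0 deconjugating enzymes and 1 and 0 other glutathione transferases. Over all genes tested the shares were 19.8% and 6.98% in kidney, and 20.3% and 9.5% in liver.

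Of 13 other conjugating enzymes tested in liver, 2 rose and 1 fell, against 1.94% and 4.08% of all genes tested. Nat8, the cysteine conjugate N-acetyltransferase that completes mercapturic acids, stood at 22.9 ± 4.57 FPKM in KO and 1.29 ± 0.333 in CT liver (4.15, SE 0.20, adjusted p = 2.05e-07). Nnmt, which methylates nicotinamide, rose (2.62, SE 0.50, adjusted p = 0.00788), and the indolethylamine methyltransferase gene Inmt fell (-2.01, SE 0.49, adjusted p = 0.0296). The Inmt call was lost without CT liver 1, 5 or 6 or KO liver 2 or 4 (adjusted p up to 0.0715). In kidney edgeR called 0 of the 13, with 5 at an unadjusted p under 0.05 and 3 by DESeq2. In that order the shares of all genes tested in kidney were 2.26%, 19.8% and 6.98%.

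Regulators of these families were tested as a list too. Of all genes tested in liver, 1.94% were called higher and 4.08% lower. In liver Nfe2l2, which encodes the antioxidant factor NRF2, had 13.6 ± 1.94 FPKM in KO and 22.4 ± 2.77 in CT liver (-0.72, SE 0.13, adjusted p = 0.00516). Of 18 NRF2 targets outside the families, 3 were lower in KO liver and none higher, with a median of -0.079, and the one with the smallest p was G6pdx of the pentose phosphate pathway (-1.72, SE 0.34, adjusted p = 0.00988). The other 2, Hmox1 and Pgd, lost their calls in 5 and 8 of the 10 fits without 1 library, where Hmox1 kept its call without CT liver 3 or KO liver 2, 3, 4 or 5 and Pgd without CT liver 1 or KO liver 5 (adjusted p up to 0.0631 and 0.119 where lost). Of 11 targets of the xenobiotic receptors CAR and PXR, 3 were lower, Cyp2b9, Cyp2b10 and Cyp2c55 (-8.46, -4.95 and -2.10, adjusted p = 0.000279, 0.000566 and 0.0150). Cyp2c55 lost its call without KO livers 4 and 5 (adjusted p = 0.0818). Of 5 targets of the aryl hydrocarbon receptor AHR, 1 was lower, Tiparp (-0.79, SE 0.18, adjusted p = 0.0225), and its call was lost without CT liver 3, 4 or 5 or KO liver 4 (adjusted p up to 0.0675) and without KO livers 4 and 5 (0.108). In kidney 0 of 21 regulators, 0 of 18 NRF2 targets, 0 of 5 CAR and PXR targets and 0 of 4 AHR targets were called by edgeR. At an unadjusted p under 0.05 these were 3, 5, 2 and 2, and by DESeq2 1, 1, 0 and 0. Of all genes tested in kidney, edgeR called 2.26%, 19.8% had an unadjusted p under 0.05, and DESeq2 called 6.98%.

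Genes that differ by sex in mouse liver moved with genotype beside the liver members. Of 9 female-biased genes tested, 7 were lower in KO liver and none higher, with a median of -2.88, and of 14 male-biased genes 5 were higher and none lower, with a median of 1.30. Of all genes tested in liver, 1.94% were called higher and 4.08% lower. Cyp2b9 belongs to the female-biased list as well as to the CAR and PXR list. The steroid hydroxylase gene Cyp2a4 stood at 0.309 ± 0.204 FPKM in KO and 151 ± 141 in CT liver (-8.94, SE 0.69, adjusted p = 1.61e-05). The urinary protein gene Mup7 stood at 11044 ± 3030 FPKM in KO and 259.6 ± 241 in CT liver (5.41, SE 0.82, adjusted p = 0.00189). In each of the 20 libraries Xist had at most 8 counts and Ddx3y at least 540, as in male tissue. In kidney 3 of 8 male-biased genes were higher in KO, and of 7 female-biased genes 1 was higher and 1 lower. There 0.394% of all genes tested were called higher and 1.87% lower. Kupffer cell and macrophage markers were lower for 3 of 5, with sums of 33.4 to 71.2 FPKM in KO livers against 66.8 to 97.7 in CT livers, stromal markers were lower for 2 of 4, and hepatocyte markers for 1 of 6, Alb. The call of Alb held in 1 of the 10 fits without 1 library, that without KO liver 2 (adjusted p up to 0.0959 in the rest). Without KO livers 4 and 5 neither Alb nor the macrophage marker Adgre1 was called (adjusted p = 0.0851 and 0.0538). Of 4 lymphocyte markers 2 were lower and 1 higher, with sums of 1.34 to 1.67 FPKM in KO livers against 2.06 to 3.01 in CT livers. The pericentral markers were higher for 1 of 6, Oat, whose call was lost without CT liver 1, 3, 4 or 6 (adjusted p up to 0.0785), and summed to 2651 to 5095 FPKM in KO livers against 2770 to 4182 in CT livers. The periportal markers were called for 0 of 6 and summed to 1054 to 1665 FPKM in KO livers against 1004 to 1337 in CT livers (edgeR, 1 of 6 at an unadjusted p under 0.05 and 0 by DESeq2). The part of sex-biased regulation or of cell makeup in the values of Gstp1 and the other liver members was not tested.

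Promoter windows of 300 bases, from 250 before to 50 after the RefSeq start in GRCm38.p6, were found for 39 of the 44 members, 49 windows in all. They were searched on both strands for 5 motifs. The core of the antioxidant response element (TGACNNNGC) was in 12.4% of all 32851 promoters and in those of Gsta3, Gstm5 and Gstm7. The STAT5 motif (TTCNNNGAA) was in 8.3% of all and in Gsta1, Gstm6 and Ugt1a6a, and the AHR motif (TTGCGTG) in 1.16% and in Sult1d1. The direct repeat bound by LXR and CAR, 2 copies of AGGTCA with 4 bases between them, was in 0.0152% and the HNF1 motif in 0.00913%, and no member promoter held either. By exact match none of the 5 was in a promoter of the 7 members called in liver. Variants that differ from a pattern at a fixed base were not counted. The promoters of Gstp1 and Gstp2 hold TGAGTCAGC, which has G where TGACNNNGC has C. The AP-1 motif (TGANTCA), chosen after the promoters had been read, was in 7.81% of all promoters and in 11 of the 49 member windows. These windows belonged to 11 of the 39 members, among them Gstp1 and Gstp2, which rose, and Ugt2b37, which fell. No overlap between the motifs was removed.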

How the data were processed

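RNA of kidney and liver of male C57BL/6 mice was sequenced with the NEBNext Ultra kit on an Illumina HiSeq instrument, per the labels' protocols. The count table was deposited as raw counts per gene with the authors' gene lengths. The second deposited table holds log2 FPKM of genes with values in every library and was used in 1 alternative. HISAT2 2.0.5, StringTie, DESeq2 1.16.1 and mm10 are named, per the submitters' processing notes, without roles. The counting tool and its use of strand are not given in the sources used here.

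Counts were tested per tissue with edgeR 4.0.16 in R 4.3.3 (quasi-likelihood, TMM, filterByExpr with a minimum count of 10, Benjamini-Hochberg over all genes tested, threshold 0.05), and all 20 libraries entered 1 fit for the tissue comparison and for the difference between genotype effects. Libraries held 23421561 to 35376342 counts. The design names 5 mice per genotype, and titles number kidneys and livers alike; a shared number, read as 1 mouse, entered the 20-library fits as a block in an alternative. Of the 44 members 28 reached 10 counts in all 20 libraries, 9 entered the liver test alone and 1 (Sult2b1) the kidney test alone, and 0 passed through 1 genotype alone. FPKM were computed from counts, gene length and TMM-scaled totals. The alternatives were DESeq2 1.42.0, limma 3.58.1, other scalings and filters, a replicate block and left-out libraries. On simulated counts the kidney fit, over 16500 genes, recovered 31 of 100 genes changed by 1 log2 unit and 91 of 100 changed by 2, the liver fit, over 14822 genes, 71 and 94, and the fit of the difference, over 17606 genes, 8 and 74. Before the change each simulated gene had the same mean in every group. The shares for the difference therefore do not describe members whose levels differ between the tissues. Members called in either tissue and the most abundant member of each family are given by library. The members and lists were chosen with earlier results of these data known. The result of 1 listed regulator in liver is not reported here.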

Additional observations from a re-analysis of the deposited data

Results flagged for a closer look

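In 4 of 52 groups of 5 libraries examined, 1 library lay far from the other 4, where chance gives about 1 in 20 groups. Gstp2 reached 4.72 FPKM in KO kidney 1 against 0.672 to 1.36 in the other KO kidneys, and 18.5 FPKM in KO liver 5 against 7.93 to 10.8 in the other KO livers. Sult5a1 reached 0.293 FPKM in KO kidney 3 against 0.170 to 0.197 in the other KO kidneys. Gstz1 reached 160.2 FPKM in CT liver 5 against 111.0 to 124.3 in the other CT livers.

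The genotype effect differed between kidney and liver by the test of the difference itself for Sult5a1 (-2.96, kidney minus liver, log2), Ugt2b37 (1.79) and Sult1c2 (1.81). In kidney the KO and CT values of these 3 genes overlapped.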

How the results depend on the processing

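Leaving out 1 library at a time gave 0 to 1 calls in kidney, 6 to 8 in liver, 2 to 3 for the difference and 41 to 43 between tissues. Over all genes the shares called in these fits were 0.589 to 5.51% in kidney and 3.85 to 6.06% in liver. They were 0.921 to 2.72% for the difference and 55.9 to 61.1% between tissues. The single kidney call appeared without CT kidney 3. In kidney, where edgeR called 0 of 35 members, DESeq2 called 3, limma voom 8, the fit without a filter on low counts 1, the fit of all 20 libraries 1, and the fit without CT kidneys 1 and 3 called 3. In that order these kidney fits called 6.98%, 13%, 1.51%, 5.38% and 3.51% of all genes, against 2.26% in the fit that called 0. For the difference limma voom called 6 members and 3.87% of all genes, against 3 members and 1.51% by edgeR.

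Title numbers were not taken to pair KO with CT samples: no source says so, and deviations of same-numbered libraries correlated at 0.0869 to 0.233 in the 4 kidney pairs, not all above 0.1, and at -0.043 to -0.0023 in liver. With that number entered as a replicate block, 3 liver members were called against 7, of which 2 were shared (Sult5a1 and Ugt2b37), with Gstp1 at an adjusted p of 0.0515. Calls over all genes in liver fell too, from 6.02% to 2.07% with the block. The mouse as a block left 3 differences and 41 tissue calls, 40 of them shared, without Ugt1a10 and with Gstp2. It called 1.03% of all genes for the difference and 58% between tissues. Leaving out KO livers 4 and 5 and CT kidneys 1 and 3 kept 1 of the 3 differences, where 1.69% of all genes were called. In liver, fitting all 20 libraries ended the calls of Gstp2 (adjusted p = 0.0549) and Gstp3 (0.0699).

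Signs that turned belonged to members not called. Under limma voom, kidney Ugt2b37 was 0.014 and Ugt2b5 0.23. With the replicate block, kidney Gstp2 was -0.24, Sult1d1 0.14 and Ugt2b37 0.12, and liver Gstz1 -0.019. With library size alone, liver Gstz1 was -0.036. Counted by class, library size alone also took positive values in kidney from 3 to 1 of 6 Gstm genes and from 3 to 2 of 3 Gstt genes. In liver it took them from 5 to 4 of 7 Ugt2b genes, from 4 to 2 of 4 Gsta genes and from 1 to 0 of 7 Ugt1a genes. Leaving out 1 library, kidney values ran from -0.66 to 0.56 for Gstp2, -0.076 to 0.33 for Gstp3, -0.26 to 0.13 for Sult1d1, -0.29 to 0.19 for Ugt2b37 and -0.43 to 0.051 for Ugt2b5, and liver Gstz1 from -4.04e-05 to 0.13. Causes were not tested. Library size alone moved the median of all genes by 0.65 between tissues, by -0.083 in kidney and by -0.080 in liver. Shared sequence limits the split of counts among Gstp1 and Gstp2, the Ugt1a genes and the close Ugt2b copies.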

Other observations

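Of the 18 genes that matched by name but missed the count rule, 4 sulfotransferase genes had most of their counts in CT liver 5, a comparison made after the values were seen. Sult2a2 had 1129 counts there and 23 in the next library, CT liver 3. Sult3a1 had 135 counts there and 24 in CT liver 3, Sult2a1 had 66 there and 2 in KO liver 1, and Sult2a5 had 42 there and 2 in CT liver 3. These Sult2a copies and Sult3a1 are known as female-biased in mouse liver. CT liver 5 also had the lowest Gstp1 of the 5 CT livers (218 FPKM) and the highest Gstz1 (160.2 FPKM). Ugt1a2 had 151 counts in CT kidney 5 and 45 in CT kidney 6.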
